A study of Mus musculus with 3 samples.

Results

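The 7 genes described here are the 3 TGF-beta ligands Tgfb1, Tgfb2 and Tgfb3, their receptors Tgfbr1, Tgfbr2 and Tgfbr3, and Tgfbi, a secreted matrix protein named for its induction by TGF-beta. They were chosen by symbol from the 32285 genes of the count tables, and each was present once. Their levels were measured in frozen sections of mouse embryonic axial skeleton on Visium slides, on which polyadenylated RNA from a tissue section is captured by an array of barcoded spots. The earliest of the 3 sections was taken at stage E11.5, the next at E12.5 and the last at E13.5 (E counts days of embryonic development). With 1 section per stage, a stage and a section cannot be told apart. The labels give the tissue as bone and each stage in the section's title. They name no strain, sex, genotype or treatment, and they do not say how many embryos were used. Sections were 10 µm thick, and a spot is 55 µm across with 100 µm between centres, so it can hold several cells of different types or part of one.

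TGF-beta ligands are made with a propeptide that holds them inactive, and this latent complex is bound to the matrix by latent TGF-beta binding proteins and fibrillins. Integrins and proteases release the ligand, which binds the type II receptor Tgfbr2, and Tgfbr2 then activates the type I receptor Tgfbr1 and with it Smad2 and Smad3. Tgfbr3, or betaglycan, is a co-receptor that presents ligand, Tgfb2 above all, to Tgfbr2. In the developing spine, signalling through Tgfbr2 is known to be needed for the intervertebral disc and for tendon, and in blood vessels the pathway also runs through Eng and Acvrl1.

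The sequence just before the annotated start of transcription is shown for the members whose levels are compared below, to set the receptor pair, 2 of the ligands and the matrix protein side by side. RefSeq entries of the GRCm38.p6 assembly were found for 5 of the 7 genes. Tgfb3 and Tgfbr3 are named only. Each run is the 250 bases before the start, 5′ to 3′ on the strand of the gene. Capitals mark matches on either strand to the TATA box (searched as TATAAA), the E-box (searched as CACGTG), the CCAAT box (searched as CCAAT), the GC box (searched as GGGCGG) and a Smad-binding form (searched as CAGACA), none of which overlapped in these runs.
Tgfb1, chr7:25686752-25687001, plus strand: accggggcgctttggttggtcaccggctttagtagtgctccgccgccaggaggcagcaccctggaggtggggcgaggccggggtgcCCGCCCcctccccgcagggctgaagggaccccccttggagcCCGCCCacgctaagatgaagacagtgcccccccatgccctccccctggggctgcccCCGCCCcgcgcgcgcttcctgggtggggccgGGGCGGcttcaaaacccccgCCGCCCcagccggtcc
Tgfb2, chr1:186705990-186706239, minus strand: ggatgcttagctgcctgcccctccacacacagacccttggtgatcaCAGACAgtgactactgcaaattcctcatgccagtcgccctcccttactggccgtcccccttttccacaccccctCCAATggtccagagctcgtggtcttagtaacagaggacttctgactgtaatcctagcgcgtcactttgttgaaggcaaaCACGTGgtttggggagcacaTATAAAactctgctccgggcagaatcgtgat
Tgfbr1, chr4:47352972-47353221, plus strand: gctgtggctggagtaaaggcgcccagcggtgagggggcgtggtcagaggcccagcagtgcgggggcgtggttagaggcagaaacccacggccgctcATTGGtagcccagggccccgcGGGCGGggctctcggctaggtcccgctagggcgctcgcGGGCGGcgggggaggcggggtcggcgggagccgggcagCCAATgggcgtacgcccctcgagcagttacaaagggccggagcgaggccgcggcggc
Tgfbr2, chr9:116175364-116175613, minus strand: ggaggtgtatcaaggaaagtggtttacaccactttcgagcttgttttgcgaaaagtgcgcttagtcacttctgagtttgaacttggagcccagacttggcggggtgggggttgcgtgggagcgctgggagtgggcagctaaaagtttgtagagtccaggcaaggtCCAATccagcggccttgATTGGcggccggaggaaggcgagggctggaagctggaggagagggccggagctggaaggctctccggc
Tgfbi, chr13:56609336-56609585, plus strand: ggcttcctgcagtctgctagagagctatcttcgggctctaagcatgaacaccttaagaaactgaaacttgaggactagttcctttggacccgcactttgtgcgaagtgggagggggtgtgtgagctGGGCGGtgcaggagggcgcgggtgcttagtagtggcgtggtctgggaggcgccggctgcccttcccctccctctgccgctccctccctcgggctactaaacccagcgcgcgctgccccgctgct

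The ligand windows differed in make-up. That of Tgfb1 held 5 GC boxes and was 75.2% G or C, with none of the other motifs, whereas that of Tgfb2 was 53.6% G or C and held 1 match each to the TATA box, the E-box, the CCAAT box and the Smad-binding form, with no GC box. The Tgfbr1 window held 2 CCAAT boxes and 2 GC boxes at 74.8% G or C, the Tgfbr2 window 2 CCAAT boxes at 58.4%, and the Tgfbi window 1 GC box at 62.4%. Over 32851 promoter entries cut to the same length, 12.4% held a TATA box, 6.02% an E-box, 33.8% a CCAAT box, 32.7% a GC box and 17.1% the Smad-binding form. Tgfbr1 had a second entry, inside the gene, whose window held 1 match to the Smad-binding form and no GC box. The Tgfb2 start used here also lies inside the annotated span of its gene. On this assembly the genes lie on 7 chromosomes, with Tgfb1 at chr7:25687002-25705077, Tgfb2 at chr1:186622787-186709697, Tgfb3 at chr12:86056743-86079041, Tgfbr1 at chr4:47353222-47414926, Tgfbr2 at chr9:116087695-116175363, Tgfbr3 at chr5:107106567-107289629 and Tgfbi at chr13:56609586-56639359. A match describes letters in a window and not a bound site.

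Levels are given as CPM, the count of a gene per 1000000 counts in the summed spots, where a count is a UMI, a molecular tag that lets each captured RNA be counted once. Spots with at least 1000 UMIs numbered 1561, 1014 and 1360 in the order of the stages, with 25490744 to 44358610 UMIs per section. Blood was unevenly present, since globin transcripts made up 5.44%, 1.40% and 0.780% of the UMIs in the order of the stages. Sections shared 434 to 704 spot barcodes, which name positions of the array and not cells. Markers of bone (Ibsp, Sp7, Bglap, Ifitm5, Col10a1) summed to only 3.53 to 48.5 CPM with Col10a1 at 0 until E13.5, while those of heart summed to 422 to 2905 CPM and those of neural tissue to 431 to 1449 CPM. The heart list holds Myh7, which at E12.5 was a leading gene of 67 spots led by the muscle gene Tnnc2. The 422 CPM of that section therefore cannot be read as heart tissue alone. The chondrogenic markers, those of the cartilage that comes before bone in the spine, summed to 275, 939 and 2331 CPM in the order of the stages, without Col2a1.

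Over all spots, Tgfb3 and the receptors Tgfbr2 and Tgfbr3 stood higher at each later stage, and Tgfbr1 was lower at E13.5 than at both earlier stages. Tgfb3 was at 20.2 CPM (895 UMIs) at E11.5, 34.0 CPM at E12.5 and 99.7 CPM (2865 UMIs) at E13.5. That made an E13.5-to-E11.5 ratio of 4.94 (exact conditional 95% interval 4.58 to 5.33). The ligand Tgfb2 was highest in the middle section, at 42.0, 85.6 and 69.0 CPM, and Tgfb1 was lowest in the last, at 14.9, 16.6 and 11.51 CPM. Between the last and the first section the ratio was 1.64 (1.54 to 1.75) for Tgfb2 and 0.773 (0.675 to 0.883) for Tgfb1. So the ligands did not move together: the E13.5 section had more Tgfb3 but less Tgfb1 than either earlier section.

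The receptors differed in the same way. Tgfbr2 was at 20.6, 38.5 and 87.6 CPM in the order of the stages, a ratio of 4.25 (3.93 to 4.58) between the last and the first. Tgfbr3 was at 12.4, 19.1 and 29.9 CPM, with a ratio of 2.41 (2.16 to 2.68). Tgfbr1, in contrast, was level at 102 and 103 CPM and then at 67.7 CPM, with a ratio of 0.664 (0.629 to 0.7003). Tgfbi was at 135, 201 and 198 CPM, with a ratio of 1.46 (1.41 to 1.52). Of the 7 genes, 3 were at least 2-fold higher at E13.5 and 0 were at least 2-fold lower, where 14.6% of the 15232 genes with at least 50 UMIs were higher by that fold and 7.96% lower. The intervals cover counting error only, and with 1 section per stage there was no test. Scaling the sections by TMM factors, which correct for differences in RNA composition, left the ratios of Tgfb3, Tgfbr2 and Tgfbr1 at 4.48, 3.85 and 0.603.

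To see where in the tissue the genes were used, 4 sets of spots were taken in each section by 1 marker gene each: Col2a1, the main collagen of cartilage; Pax1, a transcription factor of the sclerotome, the part of the somite that gives rise to the spine; Tnmd (tenomodulin), a gene of tendon; and Pecam1, an adhesion molecule of endothelium. A set held the 10% of spots highest for its marker per 10000 UMIs, and spots in more than 1 set were left out. The spots just inside and just outside that limit were close: 13.2 and 13.1 Col2a1 UMIs per 10000 at E11.5, 41.03 and 40.98 at E12.5, and 200.1 and 199.9 at E13.5. For Pax1 they were 0.778 and 0.760 at E11.5, 4.99 and 4.95 at E12.5, and 5.081 and 5.080 at E13.5. For Pecam1 they were 0.811 and 0.810 at E11.5, 1.03 and 1.01 at E12.5, and 1.319 and 1.315 at E13.5. For Tnmd they were 0.375 and 0.375 at E12.5 and 1.914 and 1.910 at E13.5, while at E11.5 every one of the 23 spots with a Tnmd UMI was taken, the last at 0.176 with 1 UMI. At E12.5, 101 of the 148 spots with a Tnmd UMI were taken, the last also with 1 UMI. In the order of the stages the sets kept 46, 46 and 76 spots (Col2a1), 43, 43 and 65 (Pax1), 12, 84 and 117 (Tnmd) and 139, 84 and 117 (Pecam1), beside 1198, 685 and 903 spots in no set, called other spots.

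The sets were checked against further markers of each type, without the gene that chose the spots. The 9 chondrogenic markers summed to 1029, 7494 and 23816 CPM in Col2a1-high spots, against 167, 420.0 and 1336 CPM in other spots. The 7 endothelial markers, none at 0, summed to 838, 892 and 1054 CPM in Pecam1-high spots against 309.8, 315 and 421 CPM. The 6 sclerotomal markers summed to 180.4, 377 and 279 CPM in Pax1-high spots against 83.2, 154 and 92.7 CPM, but they summed to 175 and 381 CPM in Col2a1-high spots at E11.5 and E12.5, so they did not tell these 2 sets apart before E13.5. The 6 tendon markers went against the name of the Tnmd-high set at E11.5, where they summed to 32.7 CPM against 42.8 CPM in other spots with Kera and Thbs4 at 0. They were higher there at E12.5 (333 against 166 CPM) and at E13.5 (1120.2 against 303 CPM), although at E13.5 Col2a1-high spots held 1839 CPM of them. The set is therefore called by its gene throughout, and its results for Tgfb2 and its calls of pathway genes are also given without E11.5. At E13.5 the Col2a1-high spots were shallow, with a median of 4204.5 UMIs against 23261 in other spots.

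UMIs were summed per set and section, and sets were compared over the 3 sections with edgeR's quasi-likelihood test, with the section as a block and Benjamini-Hochberg adjustment over all 12442 genes tested. The block takes up differences in level between sections. The spread in these tests is thus how far differences between sets vary over the sections, which are of different stages. The 4 comparisons with other spots share those spots, and within a spot fewer cells of a type and less RNA per cell cannot be told apart.

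**Figure D1:**
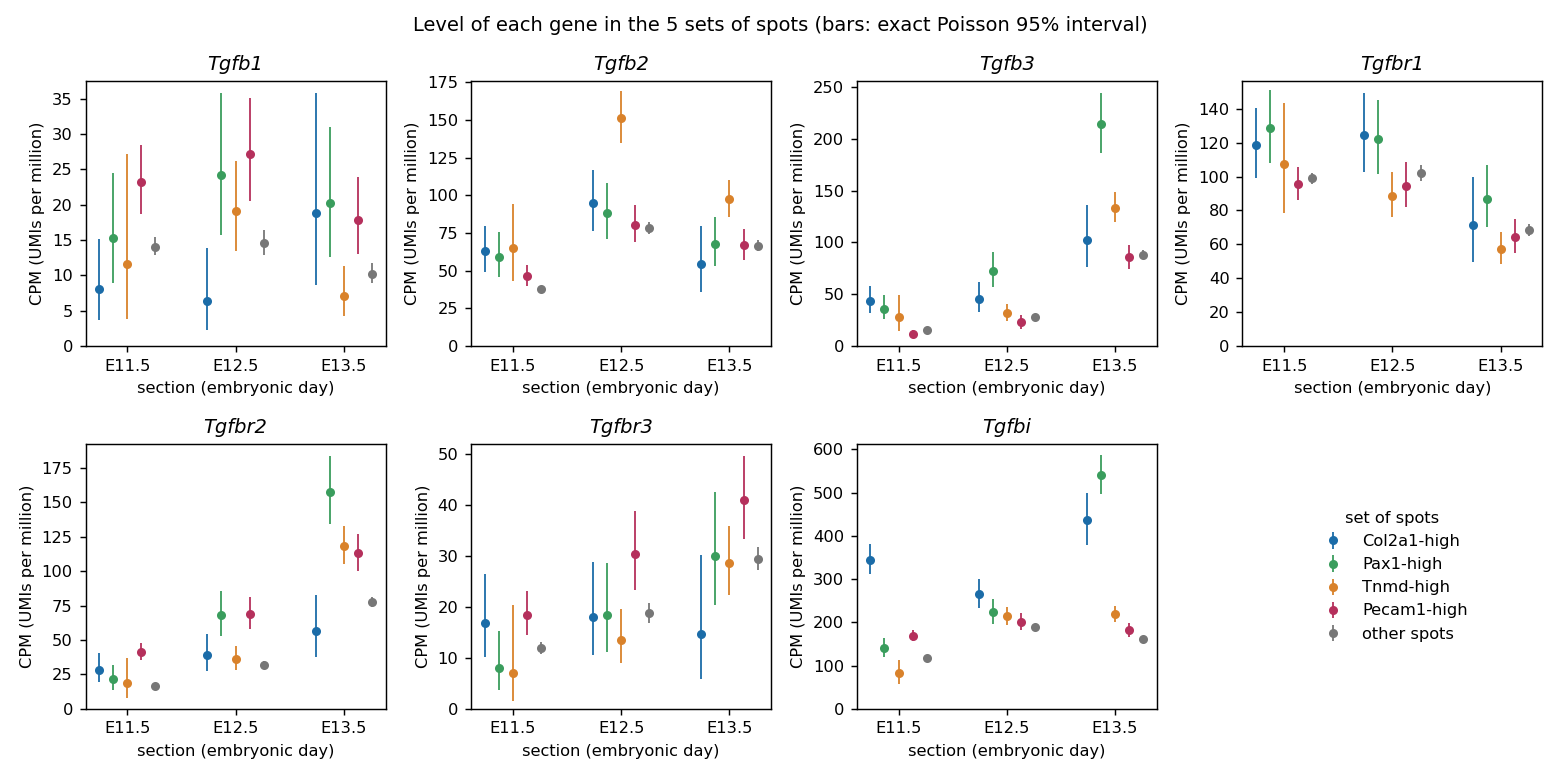
Level of each gene in CPM (vertical axes, from 0) in the 3 sections (horizontal axes, by stage) for 4 marker-high sets of spots and other spots. Points are the summed spots of 1 section and bars are exact Poisson 95% intervals. Tgfb3 lay highest in Pax1-high spots at E12.5 and E13.5, Tgfb2 in Tnmd-high spots in every section, and Tgfbi in Col2a1-high spots at E11.5 and E12.5 and in Pax1-high spots at E13.5. The lead of Tgfb2 at E11.5 (65.3 against 63.2 CPM in Col2a1-high spots) and that of Tgfbi at E12.5 were within counting error.

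Tgfb3 was raised in Pax1-high spots in every section. It was at 35.9 CPM (40 UMIs), 72.7 CPM (75 UMIs) and 214 CPM (221 UMIs) in the order of the stages, against 15.3, 27.7 and 88.2 CPM in other spots of the same sections. Each section gave about the same ratio: 2.34, 2.62 and 2.42. The fitted log2 fold change was 1.23 with a standard error of 0.19 (adjusted p = 0.00458 by edgeR's quasi-likelihood test). The values of the 2 sets overlapped across stages but not within any section. With the top 20% of spots as the set the log2 fold change was 0.60 (adjusted p = 0.217), and without E12.5 it was 1.19 (adjusted p = 0.110).

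Tgfbr2, the type II receptor, was the other member that rose in Pax1-high spots. It was at 21.5, 67.8 and 158 CPM there against 16.9, 31.9 and 77.4 CPM in other spots. At E11.5 its ratio of 1.27 (95% interval 0.810 to 1.91) was within counting error, whereas it was 2.13 at E12.5 and 2.04 at E13.5. The log2 fold change was 0.85 with a standard error of 0.22 (adjusted p = 0.0487 by edgeR), just inside the threshold, and it passed in 4 of 12 other settings. The call was lost without E12.5 (log2 fold change 0.77, adjusted p = 0.410) and without E13.5 (0.77, adjusted p = 0.112). In all, 2 of the 7 genes were higher in Pax1-high spots and 0 lower, beside 1.58% of all genes tested that were higher, 2.19% lower and 3.78% in either direction.

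Tgfbi in Pax1-high spots depended on the stage. It was at 140.04 and 223 CPM at E11.5 and E12.5, against 118 and 188 CPM in other spots, and at 539.7 CPM (558 UMIs) at E13.5, against 162 CPM. The ratios were 1.19, 1.19 and 3.33, and the log2 fold change over the 3 sections was 0.75 with a standard error of 0.30 (adjusted p = 0.185 by edgeR). Without E13.5 it was 0.19 (adjusted p = 0.778), whereas it passed with the top 5% of spots (1.03, adjusted p = 0.0262), with spots of several sets placed by highest rank (0.91, adjusted p = 0.0420) and with no filter on low counts (0.69, adjusted p = 0.0382). Tgfb1 was at 15.3, 24.2 and 20.3 CPM against 14.1, 14.5 and 10.2 CPM, from 17 to 25 UMIs, with an adjusted p of 0.366. Tgfbr1 was at 128, 122 and 87.1 CPM against 99.0, 102 and 68.5 CPM, higher in 3 of 3 sections at a log2 fold change of 0.25 (adjusted p = 0.166). Tgfb2 (adjusted p = 0.563) and Tgfbr3 (adjusted p = 0.720) did not pass either. Beside these values, chondrogenic markers summed to 308, 1343 and 7251 CPM in Pax1-high spots, all above other spots, and tendon markers to 72.7, 201 and 1377 CPM. Their part in the results was not tested.

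In Col2a1-high spots the members that rose were Tgfbi and again Tgfb3. Tgfbi was at 344 CPM (387 UMIs), 266 CPM (250 UMIs) and 436 CPM (208 UMIs), against 118, 188 and 162 CPM in other spots. Every section of the Col2a1-high set lay above every section of other spots. The ratios were 2.92, 1.41 and 2.69, and the log2 fold change was 1.13 with a standard error of 0.30 (adjusted p = 0.0239 by edgeR). Tgfb3 was at 43.6, 45.7 and 103 CPM against 15.3, 27.7 and 88.2 CPM. Its ratio went down with the stage, from 2.84 to 1.65 and 1.16, the last with a 95% interval of 0.858 to 1.55. The log2 fold change was 0.75 with a standard error of 0.21 (adjusted p = 0.0262). Of the 156, 101 and 136 spots highest for Col2a1, 106, 55 and 53 were also among those highest for Pax1 and were left out. Of the 46 kept at E11.5, 16 lay in a clustered region led by Penk, Tbx1 and Sned1 with Tgfbi at 297 CPM. Regions led by Alx1 and by Cxcl14 held 7 and 4, at 214 and 138 CPM. Those led by S100a9 and by Pax1 held 9 and 8, at 226 and 265 CPM. Their part in the Tgfbi values was not tested.

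Of the 7 genes, 2 were thus higher in Col2a1-high spots and 0 lower. Among all genes tested 6.22% were higher, 8.81% lower and 15% in either direction. Both calls were lost without E11.5, at log2 fold changes of 0.42 for Tgfb3 (adjusted p = 0.210) and 0.92 for Tgfbi (adjusted p = 0.0900). They were also lost without E12.5, at 0.81 (adjusted p = 0.175) and 1.46 (adjusted p = 0.0836), and Tgfb3 when only these 2 sets were fitted, at 0.75 (adjusted p = 0.0871). With at least 5000 UMIs per spot, which removes the shallow spots of E13.5, the log2 fold changes were 0.94 for Tgfb3 (adjusted p = 0.00289) and 1.14 for Tgfbi (adjusted p = 0.0104).

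The other 5 members did not pass there. Tgfb1 was at 8.01 and 6.38 CPM at E11.5 and E12.5, below the 14.1 and 14.5 CPM of other spots, and at 18.9 CPM against 10.2 CPM at E13.5. It rested on 9, 6 and 9 UMIs, and its adjusted p was 0.423. Tgfbr2 was at 28.5, 39.4 and 56.6 CPM, above other spots at E11.5 and E12.5 and below them at E13.5. Tgfbr3 was at 16.9, 18.1 and 14.7 CPM, the last on 7 UMIs with a 95% interval of 5.90 to 30.2 CPM, which holds the 29.5 CPM of other spots at E13.5. Tgfb2 was at 63.2, 94.7 and 54.5 CPM, and Tgfbr1 at 118, 124 and 71.3 CPM with ratios of 1.04 to 1.22.

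In Pecam1-high spots 1 of the 3 receptors, Tgfbr2, was higher than in other spots. It was at 41.2 CPM (165 UMIs), 69.0 CPM (145 UMIs) and 113 CPM (284 UMIs), against 16.9, 31.9 and 77.4 CPM. It was higher in 3 of 3 sections, with ratios of 2.44, 2.16 and 1.46, and rose with a log2 fold change of 0.96 and a standard error of 0.20 (adjusted p = 0.0269 by edgeR). It was the 1 member of 7 called, where 1.12% of all genes tested were higher, 0.603% lower and 1.72% in either direction. The call was lost without E11.5 (log2 fold change 0.79, adjusted p = 0.171), without E12.5 (0.87, adjusted p = 0.539) and with the top 20% of spots (0.79, adjusted p = 0.0995).

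Tgfb1 and Tgfbr3 had their highest level of the 5 sets in Pecam1-high spots in 2 of 3 and 3 of 3 sections, without passing the test. Tgfb1 was at 23.2, 27.1 and 17.9 CPM against 14.1, 14.5 and 10.2 CPM, and all 3 values lay above all 3 of other spots. The ratios were 1.65, 1.87 and 1.75, at a log2 fold change of 0.80 with a standard error of 0.26 (adjusted p = 0.160 by edgeR). Tgfbr3 was at 18.5, 30.4 and 41.0 CPM against 11.97, 18.8 and 29.5 CPM, with a log2 fold change of 0.58 (adjusted p = 0.172). Both passed when only Pecam1-high and other spots were fitted (adjusted p = 0.0198 and 0.0436). Tgfb3 was at 11.7, 22.8 and 85.5 CPM, below other spots in 3 of 3 sections (adjusted p = 0.803), and Tgfb2, Tgfbr1 and Tgfbi had adjusted p-values of 0.825 to 0.926. Platelet markers (5 genes, none at 0) summed to 333, 133 and 136 CPM in Pecam1-high spots against 156, 84.7 and 121 CPM in other spots. Macrophage markers summed to 118, 188 and 349 CPM against 87.6, 126 and 370.4 CPM, so they were lower in Pecam1-high spots at E13.5 only. Smooth muscle and pericyte markers summed to 176 to 431 CPM and 86.6 to 281 CPM. Their part in the results was not tested.

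Tgfb2 was the member that stood out in Tnmd-high spots, short of the threshold. It was at 65.3 CPM (28 UMIs), 151 CPM (301 UMIs) and 97.3 CPM (245 UMIs) against 38.1, 78.3 and 66.6 CPM in other spots. It was higher in 3 of 3 sections, with ratios of 1.72, 1.93 and 1.46. The log2 fold change was 0.82 with a standard error of 0.14 and an unadjusted p of 5.16e-05 (adjusted p = 0.0636 by edgeR, 0.00257 by DESeq2). This comparison called few genes of any kind: 0 of the 7 members (3 at an unadjusted p under 0.05, and 1 by DESeq2), and 0.0482% of all genes tested (0.0321% higher and 0.0161% lower). Those were 6 genes, against 38 by DESeq2 and 1023 at an unadjusted p under 0.05. Without E11.5, where the set held 12 spots that lacked the tendon pattern, the log2 fold change of Tgfb2 was 0.79 (adjusted p = 0.103). At E12.5, where Tgfb2 was highest, the 6 epidermal markers summed to 218 CPM in Tnmd-high spots against 68.3 CPM in other spots, and 13 of the set's spots lay in a clustered region led by Krt5, Krt14 and Gjb2 with Tgfb2 at 127 CPM. At E11.5 and E13.5 epidermal markers were lower than in other spots (9.33 against 41.1 CPM and 15.1 against 37.2 CPM). Skeletal muscle markers summed to 53.6, 959.8 and 3062 CPM in the order of the stages, against 162, 663 and 2481 CPM. The part of either list in the Tgfb2 values was not tested.

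At E13.5, Tnmd-high spots were also above other spots in Tgfb3 (133 against 88.2 CPM), Tgfbr2 (118 against 77.4 CPM) and Tgfbi (219 against 162 CPM). Their E13.5 ratios were 1.51 (95% interval 1.34 to 1.70), 1.53 (1.35 to 1.73) and 1.35 (1.24 to 1.48). Over the 3 sections their adjusted p-values were 0.409, 0.583 and 0.993.

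Set directly against Col2a1-high spots, Tnmd-high spots had more Tgfb2 and less Tgfbi in 3 of 3 sections, and neither passed. Tgfb2 had ratios of 1.03, 1.60 and 1.78 and a log2 fold change of 0.59 with a standard error of 0.17 (adjusted p = 0.0678 by edgeR, 0.0482 by DESeq2, and 0.0388 without E11.5). Tgfbi had ratios of 0.237, 0.808 and 0.502 and a log2 fold change of -0.96 with a standard error of 0.32 (adjusted p = 0.101). Of the 7 genes 0 were called by edgeR (3 at an unadjusted p under 0.05, and 1 by DESeq2), against 4.52% of all genes tested, 2.36% higher and 2.16% lower. Without E11.5 the log2 fold change of Tgfbi was -0.58 (adjusted p = 0.334).

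**Figure D2:**
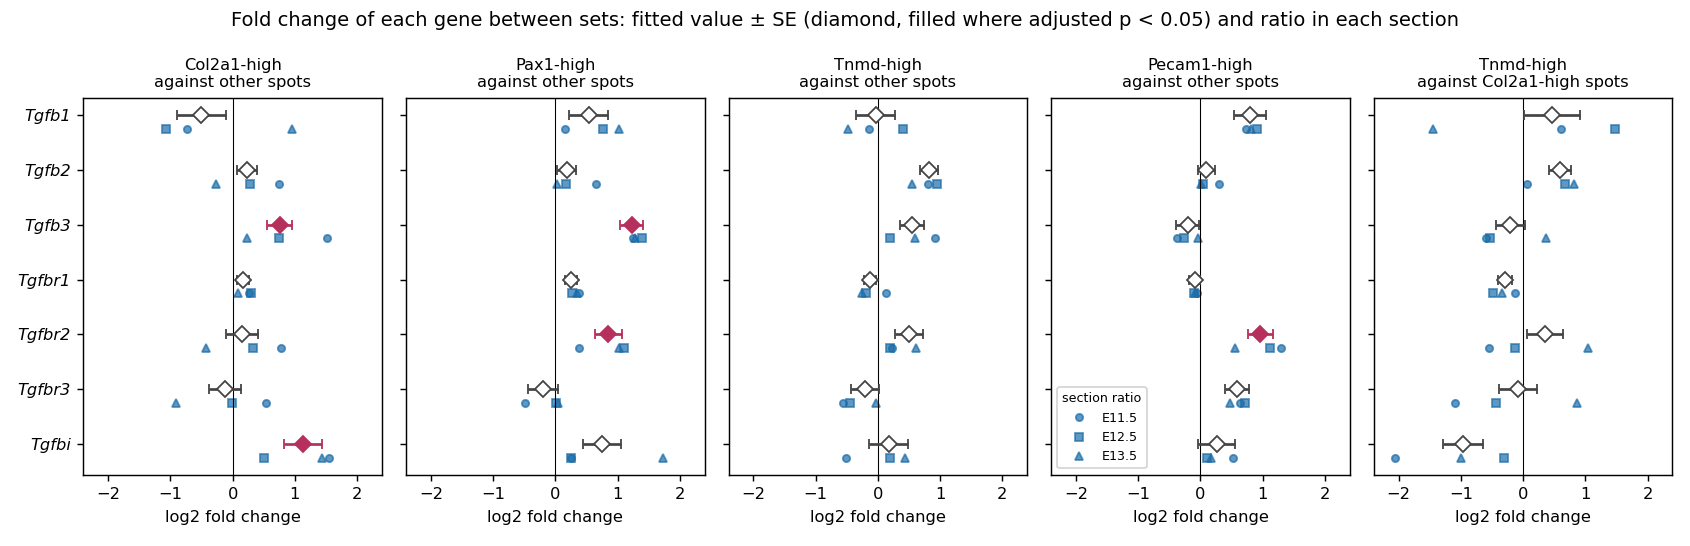
Log2 fold change of each gene (rows) in the 5 comparisons between sets of spots (panels). Diamonds are edgeR's fitted values with 1 standard error, filled where the adjusted p was under 0.05, and the small symbols beside them are the ratios within each section. Among the members that passed, the 3 sections lay closest together for Tgfb3 in Pax1-high spots (ratios of 2.34 to 2.62).

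Between the stages, the ratios of some members lay further apart over the sets than those of others. Tgfbr1 had an E13.5-to-E11.5 ratio below 1 in all 4 sets, from 0.533 in Tnmd-high to 0.678 in Pax1-high spots. The ratio of Tgfb3 was 2.36 (95% interval 1.55 to 3.57) in Col2a1-high spots and higher in the other sets: 5.95 (4.24 to 8.56) in Pax1-high, 4.77 (2.69 to 9.31) in Tnmd-high and 7.28 (5.29 to 10.2) in Pecam1-high spots. Tgfbr2 ranged likewise from 1.99 (1.15 to 3.43) in Col2a1-high to 7.32 (4.75 to 11.8) in Pax1-high spots. Tgfbi ran from 1.08 (0.953 to 1.21) in Pecam1-high and 1.27 in Col2a1-high spots to 3.85 (3.22 to 4.63) in Pax1-high spots. Differences between these ratios were not tested, because each rests on 1 section per stage.

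Tgfb2 was at its highest at E12.5 in each of the 4 sets, with E12.5 ratios to E11.5 of 1.49 to 2.31. By the 2-fold rule, which takes genes with at least 50 UMIs over the E11.5 and E13.5 sections, 1 of 5 members was higher at E13.5 in Col2a1-high spots, 3 of 5 in Pax1-high, 4 of 6 in Tnmd-high and 3 of 7 in Pecam1-high spots, and 0 were lower in any set. With too few UMIs to enter, Tgfb1 in Col2a1-high spots had a ratio of 2.36 (0.829 to 6.70, 18 UMIs) and Tgfbr3 in Pax1-high spots one of 3.71 (1.72 to 8.86, 40 UMIs). The shares of all genes that were higher by that rule were 10.5%, 12.4%, 15.2% and 8.12% in the same order, and those lower 8.64%, 3.68%, 3.97% and 3.36%. In Pax1-high spots the Tgfbi ratio was 2.63 with at least 5000 UMIs per spot and 2.21 with the top 20% of spots, and the Tgfb3 ratio in Col2a1-high spots was 3.83 with the top 20%.

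**Figure D3:**
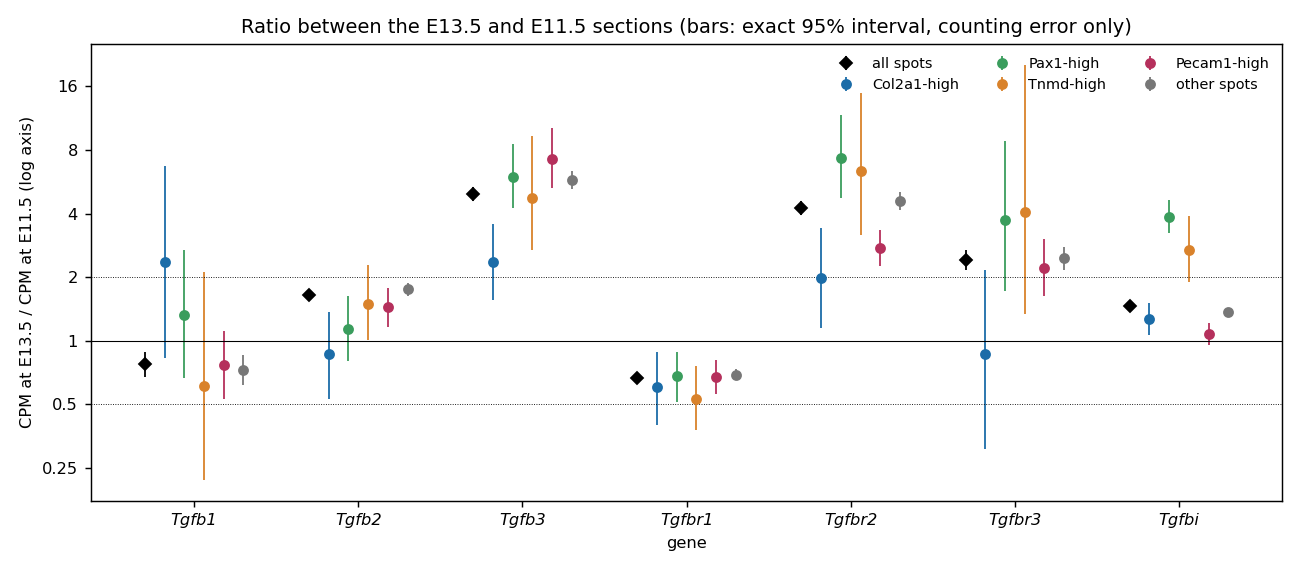
Ratio of the CPM at E13.5 to that at E11.5 for each gene (log axis, dotted lines at 2 and 0.5), over all spots, in the 4 marker-high sets and in other spots. Bars are exact conditional 95% intervals for counting error. Tgfbr1 lies below 1 in every set shown, while Tgfb3 lies between 2.36 in Col2a1-high and 7.28 in Pecam1-high spots.

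Among the sets, few members had an order that stood beyond counting error from one set to the next. Tgfbi at E13.5 was fully ordered: 539.7 CPM in Pax1-high, 436 CPM in Col2a1-high, 219 CPM in Tnmd-high, 181 CPM in Pecam1-high and 162 CPM in other spots, each above the next. At E11.5 the Tgfbi order was Col2a1-high (344 CPM), Pecam1-high (169 CPM), Pax1-high (140.04 CPM), other (118 CPM) and Tnmd-high spots (81.6 CPM), again with each step beyond counting error. At E12.5 no neighbours in the order of Tgfbi were separated. Tgfb3 was highest in Pax1-high spots at E12.5 and E13.5, ahead of the next set by 1.59 and 1.60 times, and Tgfb2 was highest in Tnmd-high spots, ahead by 1.60 times at E12.5 and 1.44 times at E13.5. Tgfbr2 at E12.5 was at 69.0 CPM in Pecam1-high and 67.8 CPM in Pax1-high spots, which did not differ beyond counting error. At E13.5 Pax1-high spots were ahead of all other sets (158 CPM against 118 CPM in Tnmd-high spots). No neighbours in the order of Tgfbr1 differed beyond counting error at any stage.

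The rest of the pathway was read from lists of 49 further genes, of which 45 were tested. Of these, 10 were higher and 4 lower in Col2a1-high spots, 6 higher and 1 lower in Pax1-high spots, 4 higher and 0 lower in Pecam1-high spots, and 0 in either direction in Tnmd-high spots by edgeR (13 at an unadjusted p under 0.05, and 2 by DESeq2). Among all genes tested, 6.22% were higher and 8.81% lower in Col2a1-high spots, and 1.58% and 2.19% in Pax1-high spots. The shares were 1.12% and 0.603% in Pecam1-high and 0.0321% and 0.0161% in Tnmd-high spots. Without E12.5, 1 of the 14 in Col2a1-high spots (Snai1), 1 of the 7 in Pax1-high spots (Ltbp2) and 0 of the 4 in Pecam1-high spots still passed. Without E11.5 it was 10, 5 and 1, and without E13.5 it was 9, 1 and 4. Of the 8 genes for latency and storage, Ltbp2, Ltbp3 and Fbn2 were higher and Lrrc32, which tethers latent ligand to cell surfaces, lower in Col2a1-high spots. Ltbp2 rested on 1, 1 and 34 UMIs there, and its ratio was within counting error at E11.5 and E12.5. Lrrc32 rested on 4, 4 and 2 UMIs, with a ratio within counting error in every section. By DESeq2 neither of them passed. The median log2 fold change of the 8 storage genes was 0.35 in Col2a1-high spots, against -0.01 over all genes. It was 0.44 in Tnmd-high and 0.37 in Pecam1-high spots, against -0.00991 and -0.00883 over all genes. Ltbp2, Ltbp3, Ltbp4 and Fbn2 were higher in Pax1-high spots, with a median of 0.51 against 0.00317. Ltbp3, a binding protein of latent ligand, was at 50.7, 120.2 and 493 CPM in Col2a1-high and 43.1, 93.0 and 489 CPM in Pax1-high spots, against 28.4, 45.1 and 177 CPM in other spots. Its log2 fold changes were 1.23 and 1.02 (adjusted p = 0.000953 and 0.00752 by edgeR). Ltbp2 had the largest fold of the pathway genes called in Pax1-high spots (log2 fold change 2.13, adjusted p = 0.00458), on 3, 0 and 133 UMIs there, and the 0 at E12.5, against 0.223 CPM in other spots, is within counting error.

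Of the 10 genes that activate the ligand, Itgav, Thbs1, Mmp2 and Furin were higher in Col2a1-high spots and only Mmp2 in Pax1-high spots, of 9 tested. Furin stood at 27.6 against 27.4 CPM at E11.5, within counting error, and did not pass by DESeq2. Thbs1 encodes thrombospondin 1, which activates latent ligand, and was at 57.8, 201 and 266 CPM in Col2a1-high spots against 28.8, 47.0 and 57.5 CPM (log2 fold change 1.79, adjusted p = 0.00208). Mmp2, a matrix protease, was at 219.9, 265 and 1005 CPM in Pax1-high spots against 120, 144 and 292 CPM (log2 fold change 1.15, adjusted p = 0.00657). Of the response genes tested, 3 of 12 were higher and 3 lower in Col2a1-high spots, and they are not all alike in what they do. Snai1, a transcriptional repressor, and Ccn1 and Ccn2, matricellular proteins, rose by log2 fold changes of 1.87, 1.31 and 2.76 (adjusted p = 0.000190, 0.0100 and 0.00208). Ccn2 stood at 5.34 against 5.37 CPM at E11.5 and was higher in both later sections. The smooth muscle genes Acta2 and Tagln fell by 2.33 and 2.16 on the log2 scale (adjusted p = 0.0158 and 0.0243 by edgeR). Cdkn1a, a cell cycle inhibitor, fell by 1.49 (adjusted p = 0.0276). Tagln rested on only 7, 5 and 5 UMIs in Col2a1-high spots and Cdkn1a on 6, 5 and 8. The Cdkn1a ratio at E11.5, 0.779 (0.283 to 1.72), was within counting error. Its later ratios and those of Tagln in every section were beyond it. Against Col2a1-high spots, Acta2, Tagln and Col1a1 were higher and Ltbp3 and Snai1 lower in Tnmd-high spots in 3 of 3 sections, and Ccn2 was lower in 2 of 3. Without E12.5, 0 of these 6 passed. The Tagln ratio at E13.5, on 5 UMIs in Col2a1-high spots, was within counting error, as were those of Ltbp3 and Ccn2 at E11.5.

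Pecam1-high spots held more of both receptors of the endothelial branch: Acvrl1, a type I receptor, was at 35.0, 33.3 and 45.8 CPM against 13.1, 10.4 and 19.4 CPM (log2 fold change 1.41, adjusted p = 0.00490), and Eng, a co-receptor, had a log2 fold change of 1.22 (adjusted p = 0.00353). Ltbp4 (0.80, adjusted p = 0.0133) and Lrrc32 (1.12, adjusted p = 0.0255) were also higher. Of the 4 transducers, Smad3 was higher in Pax1-high spots (log2 fold change 0.63, adjusted p = 0.0246) and 0 of 4 passed in each of the other comparisons by edgeR (0 or 1 at an unadjusted p under 0.05, and 1 by DESeq2, in Col2a1-high spots). Of the 10 inhibitors 0 passed in any of the 5 comparisons by edgeR, with 0 to 2 at an unadjusted p under 0.05 and 1 by DESeq2, in Tnmd-high spots.

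Between E11.5 and E13.5, over all spots, 14.6% of the 15232 genes with at least 50 UMIs were at least 2-fold higher and 7.96% lower. Of the 49 pathway genes, 20 were at least 2-fold higher and 0 at least 2-fold lower. They included 5 of the 8 storage genes, led by Ltbp2 (0.699 to 37.7 CPM, ratio 54.0, 95% interval 37.8 to 79.8). Itgb6, an integrin subunit that activates latent ligand, had a ratio of 15.6 on low levels (0.316 to 4.94 CPM). Postn, a matrix protein, was at 77.5, 154 and 1133 CPM with a ratio of 14.6, and Dcn, which binds TGF-beta, at 33.3, 70.3 and 482 CPM with a ratio of 14.5. The transducers were near level. Smad2, Smad3 and Smad4 had ratios of 0.961, 1.00 and 0.930, and 0 of the 4 reached 2-fold.

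For a view that does not depend on 4 marker genes, the spots of each section were clustered by expression into 21, 17 and 16 regions, which are named here only by their leading genes. Since all genes took part in the clustering, region levels are a description without a test. Tgfb3 was highest in 98 spots led by S100a9, S100a8 and Wwp2 with Col9a3 and Pax1 at E11.5 (84.5 CPM, median of the regions 15.4). At E12.5 it was highest in 68 spots led by Foxf1, Pax1 and Foxf2 (99.5 CPM, median 30.02), and the next was the region led by T, the notochord transcription factor, with Epyc and Scin (84.3 CPM in 35 spots). At E13.5 its highest region held 78 spots led by Fmod, Ucma and Chad (237 CPM, median 94.0), of which 26 were Pax1-high and 11 Col2a1-high. Tgfbi had its highest value of any region in those same 78 spots, at 984 CPM (999 UMIs) against a median of 203. At E12.5 it was highest elsewhere, in 50 spots led by Adamts18, Ecm1 and Wt1 (621 CPM), and at E11.5 in 57 spots led by Penk, Tbx1 and Sned1 (297 CPM).

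Tgfb2 and the receptors peaked in other regions. Tgfb2 was highest at E11.5 in 64 spots led by the muscle genes Tnnc2, Myh3 and Myog (120.45 CPM, median 33.8), at E12.5 in the Adamts18 region (148 CPM) with the muscle-gene region next (139 CPM), and at E13.5 in 76 spots led by C1qtnf3, Tnmd and Thbs4 (123 CPM, median 61.0). Tgfbr2 was highest in that same Tnmd-led region at E13.5 (158 CPM), of whose spots 46 were Tnmd-high, followed by 62 spots led by the mast cell genes Tpsb2, Cpa3 and Cma1 (130.03 CPM). Tgfbr1 was highest in regions led by genes of neurons at each stage: Evx1os and Lhx2 at E11.5 (161 CPM), Uts2b and Slc18a3 at E12.5 (152 CPM) and Chgb and Cartpt at E13.5 (90.3 CPM). The E12.5 region of that pair was near the bottom for Tgfb3 (8 UMIs, 4.095 CPM) and lowest for Tgfbr3 (1.54 CPM, 3 UMIs) and Tgfbi (21.0 CPM). At E11.5, Tgfb1 (44.8 CPM) and Tgfbr3 (34.8 CPM) were both highest in 35 spots led by the liver genes Alb, Itih2 and Serpina6, where Tgfbr1 was lowest (27.4 CPM). At E12.5, Tgfbr3 was highest in 63 spots led by Egfl8, Sox10 and Ednrb (40.4 CPM).

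**Figure D4:**
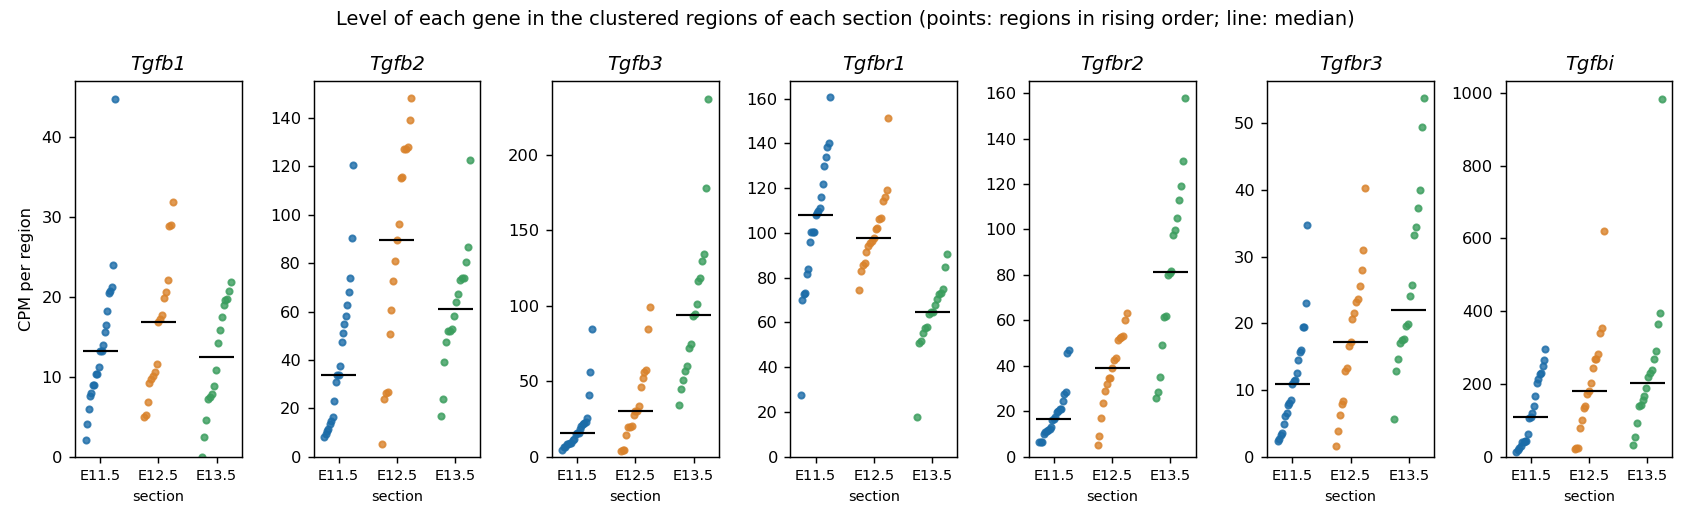
CPM of each gene (vertical axes, from 0) in every clustered region of each of the 3 sections, by stage, with regions in rising order within a section and the median as a line. Tgfbi has 1 region far above the rest at E12.5 (621 CPM) and at E13.5 (984 CPM), and Tgfb1 has 1 at E11.5 (44.8 CPM).

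Over regions, the levels of Tgfb3 went with those of Tgfbi, Tgfb2 and Tgfbr2. The mean Pearson's r of the log2 levels over the 3 sections was 0.74, 0.73 and 0.71 in that order, and which was closest changed with the section. It was 0.79, 0.79 and 0.68 over 21 regions at E11.5, 0.94, 0.78 and 0.84 over 17 at E12.5, and 0.50, 0.61 and 0.61 over 16 at E13.5. Tgfb1 and Tgfbr3 had a mean r of 0.65. Tgfb2 and Tgfbi had r of 0.81 and 0.84 at the first stages but -0.08 at E13.5, and Tgfbr1 had a negative mean r with Tgfb1 (-0.28) and Tgfbr3 (-0.23). Of the 6886 or 6887 other genes compared, those most like Tgfb3 by mean r were the matrix genes Mmp2 (0.87), P3h3 (0.85) and Emilin1 (0.85), and those most like Tgfbi were Scarf2 (0.87), Nfatc4 (0.85) and Tmem263 (0.84). Fbn1 (0.80), Zyx (0.78) and Dse (0.78) led for Tgfb2, and Mfap2 (0.84), Chst14 (0.84) and Reck (0.83) for Tgfbr2. The genes most like Tgfbr1 were Gprasp2 (0.81), Tmem121 (0.76) and Irak1bp1 (0.72), those most like Tgfb1 were Sri (0.79), Ece1 (0.75) and Ptpn18 (0.74), and those most like Tgfbr3 were B2m (0.84), Zfp36l2 (0.81) and Axl (0.81). Regions of a section share its library and were drawn from all genes, so these values are descriptions.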

How the data were processed

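The deposited files hold raw UMI counts per gene and spot for 3 sections, made with Space Ranger 1.2.0 per the file headers. Per the submitters' processing notes STAR and mm10 were used. Not given in the sources used here are the STAR version, the annotation release and how spots were selected. Depth was 25490744 to 44358610 UMIs per section in spots with at least 1000 UMIs, which left out 2, 0 and 5 spots. Spot positions and images were not used here.

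Set sums (15: 3 sections, 4 sets and other spots) were tested with edgeR 4.0.16 in R 4.3.3 (filterByExpr, TMM, glmQLFit, glmQLFTest, section as a block, adjusted p under 0.05), with all sums sharing 1 estimate of the spread per gene. The block rests on the section, since sets of a section come from 1 slice. DESeq2 1.42.0 and other sets, filters and scalings were alternatives. For log2 ratios within a section, 0.5 UMI was added to both sums. Intervals are at 95% and cover counting error only. Regions came from Leiden clustering (resolution 1.0, 2000 variable genes, 30 components, 15 neighbours) with scanpy 1.11.5 in Python 3.11.15, and pattern likeness took genes with at least 500 UMIs in each section, without globin, mitochondrial, ribosomal protein and unnamed genes. No doublet caller applies to spots.

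Named were the 7 members, up to 6 pathway genes per comparison and direction by fold that passed in the same direction in 3 of 3 sections, up to 4 per direction between stages, and the 3 genes most like each member. Furin, Itgav, Fbn2, Smad2, Smad4 and Ccn2 against Col2a1-high spots fall outside this rule and were named after their values were seen. Ltbp2 in Pax1-high and Ccn2 in Col2a1-high spots meet it only with the added 0.5 UMI. The members and lists were chosen with earlier results of these data known. On simulated counts the Col2a1-high comparison recovered 59% of 100 genes changed by a log2 size of 1 and 90% at a size of 2 (12290 genes), and the Pecam1-high comparison 83% and 93% (12255 genes). Of the genes called there, 5.70% and 6.88% had not been changed. The changed genes were drawn from those above a minimum expected count, and all sets of a section otherwise had the same mean.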

Additional observations from a re-analysis of the deposited data

Results flagged for a closer look

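Spots high for both Col2a1 and Pax1 were left out of the comparisons of sets, and held more Tgfb3 and Tgfbi than other spots. There were 106, 55 and 53 of them in the order of the stages. Tgfb3 was at 91.6 CPM (205 UMIs), 114 CPM (120 UMIs) and 180.1 CPM (82 UMIs), with ratios to other spots of 5.97 (95% interval 5.06 to 7.03), 4.11 (3.34 to 5.02) and 2.04 (1.62 to 2.55). At E11.5 and E12.5 these levels were above those of spots high for only 1 of the markers (35.9 to 72.7 CPM), while at E13.5 Pax1-high spots were higher (214 CPM). Tgfbi was at 256, 323 and 828 CPM, with ratios to other spots of 2.17, 1.72 and 5.12 (4.59 to 5.69). Tgfbr3 was at 9.83, 7.60 and 13.2 CPM there, below other spots in 3 of 3 sections on 22, 8 and 6 UMIs. Its ratios were 0.822 (0.509 to 1.26), 0.405 (0.173 to 0.807) and 0.447 (0.163 to 0.979), the first within counting error.

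Tgfbi went in opposite directions between stages in Tnmd-high spots. Its log2 ratio to other spots was -0.51 at E11.5, on 35 UMIs in the 12 spots that lacked the tendon pattern, and 0.19 at E12.5 and 0.44 at E13.5. The difference was not tested. The log2 ratio of Tgfb1 between Tnmd-high and Col2a1-high spots was 1.48 at E12.5 and -1.44 at E13.5, also untested, with 6 and 9 UMIs of Tgfb1 in the Col2a1-high spots.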

How the results depend on the processing

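The 5 member calls had 60 alternative values, all in the same direction, of which 38 passed and 22 did not. Of all 420 alternative values of member fold changes, 356 kept direction and side of the threshold, 16 gained it and 26 turned sign. Without a replicate block, no member passed, and 10, 0, 0 and 2 genes were called for Col2a1-, Pax1-, Tnmd- and Pecam1-high against other spots and 5 for Tnmd-high against Col2a1-high spots, in place of 1870, 470, 6, 214 and 563. Tgfbr2 (Col2a1-high) was then at -0.10, and in the last comparison Tgfb3 at 0.18 and Tgfbr3 at 0.16. Fitting only the 2 sets gave 1151, 265, 43, 718 and 230 genes. Leaving out a section gave 168 to 1289, 23 to 478, 6 to 16, 3 to 282 and 44 to 664, with the low end of all but the Tnmd-high comparison without E12.5. No filter on low counts gave 1226 (Pax1), 281 (Tnmd), 670 (Pecam1) and 1090, and shifted the median log2 fold change of all genes by up to -0.34. Its higher and lower calls were 623 and 1702 (main 774 and 1096), 274 and 952 (197 and 273), 86 and 195 (4 and 2), 228 and 442 (139 and 75) and 704 and 386 (294 and 269). DESeq2 gave 38 for Tnmd-high, and 164 and 43 for Pecam1-high. The top 5% of spots gave 1076 (Pax1), 44 (Tnmd) and 1006 (Tnmd against Col2a1), the top 20% 20, 21 and, for Pecam1, 130. Placing spots of several sets by highest rank gave 1340 (Pax1) and 1125 (Tnmd against Col2a1), and at least 5000 UMIs 10 (Tnmd). A fold of 1.5 between stages gave 5788 genes in place of 3431. The causes were not tested.

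Turned signs with the top 20% were Tgfb1 in Col2a1-high (0.036), Tgfbr1 and Tgfbr3 in Pax1-high (-0.084 and 0.25) and Tgfbr3 in Tnmd-high spots (0.31), and, against Col2a1-high spots, Tgfb1 (-0.25) and Tgfbr3 (0.33). By highest rank they were Tgfb1 in Col2a1-high (0.14) and Tnmd-high spots (0.084) and, against Col2a1-high spots, Tgfb1 (-0.059) and Tgfbr3 (0.38), which was also 0.72 with the top 5% and 0.046 with at least 5000 UMIs.

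Leaving out a section gave log2 fold changes from -0.093 to 0.47 for Tgfbr2 and -0.45 to 0.18 for Tgfbr3 in Col2a1-high spots, -0.0042 to 0.33 for Tgfb2 in Pax1-high spots, -0.55 to 0.24 for Tgfb1 in Tnmd-high spots and -0.0048 to 0.18 for Tgfb2 in Pecam1-high spots. In Tnmd-high against Col2a1-high spots they ran from -0.42 to 1.26 for Tgfb1, -0.65 to 0.056 for Tgfb3, -0.25 to 0.59 for Tgfbr2 and -0.66 to 0.29 for Tgfbr3. Depth limits Tgfb1 and Tgfbr3, with 6 to 19 UMIs a section in Col2a1-high spots and 5 and 3 UMIs in Tnmd-high spots at E11.5, and no section has a replicate.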
